A study of Gallus gallus with 3 samples.

Results

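The 10 genes described here encode enzymes of glycolysis and the subunits of lactate dehydrogenase. They were taken by symbol from the deposited expression table: HK1, GPI, TPI1, GAPDH, PGK1, PGAM1, ENO1, PKM, LDHA and LDHB. All 10 were present among 15675 rows with values. The samples were jejunal mucosa, the lining of the middle small intestine, of breeder hens of 28 weeks, kept in single cages and of the heat-adapted Leuang Hang Kao type. The study compared hens at 23 °C with hens held at 36 °C for 6 h, 25 per arm, and combined RNA of 12 hens per arm into pools of 4. The 3 libraries analysed are pools of the thermoneutral control arm, called pools 1, 2 and 3, and the heated arm is not analysed here. The values therefore describe the unheated mucosa and the spread among pools of the same condition, and no response to heat. They are FPKM, fragment numbers corrected for gene length and for library size, so levels of different genes can be set side by side. Errors are SD over the 3 pools (n = 3), the spread between pooled RNAs and not between single hens.

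Glycolysis converts glucose to pyruvate in the cytosol with a net gain of ATP and NADH. Hexokinases and glucose phosphate isomerase act at its start, triose phosphate isomerase and GAPDH in its middle, and the kinases, mutase and enolase that follow yield ATP and pyruvate. Lactate dehydrogenase turns pyruvate and NADH into lactate and NAD+, and works in both directions as a tetramer of A and B subunits. In intestinal epithelium these enzymes handle sugar taken up from the lumen and from blood, and muscle, stroma and immune cells of the mucosa use them as well.

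The libraries were similar in the number of genes at 1 FPKM or more and carried the markers of their labelled tissue. From 11217 to 11810 genes per pool were at 1 FPKM or more, and 11570 averaged 1 FPKM or more, the set against which the members are read. All 14 listed enterocyte markers averaged 1 FPKM or more. Their summed level was 65897, 57871 and 22886 FPKM in pools 1, 2 and 3. Much of this sum was FABP1 and APOA1, at 20545.5 and 21954.4 FPKM in pool 1 and 4468.83 and 6479.28 in pool 3. The size of the difference in the sum thus largely follows these genes. The 12 smooth muscle markers summed to 453, 807 and 1324 FPKM and the 10 fibroblast markers to 238, 459 and 740 FPKM, so pool 3 held the least enterocyte and the most muscle and stromal transcript. Of 7 measured exocrine pancreas markers, 1 averaged 1 FPKM or more. In pooled tissue, fewer cells of a type and less RNA per cell cannot be told apart.

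Transcripts of 9 of the 10 enzymes were abundant, and HK1 was scarce. The median member had a level equal to 310.5 FPKM, against 12.5 FPKM for the median of the 11570 genes. GAPDH was highest at 2007 ± 262 FPKM and ranked between 86 and 114 among all genes in the 3 pools. LDHA followed at 1225 ± 381 FPKM and ENO1 at 971 ± 73.9. LDHB, at 117 ± 22.7 FPKM, was the ninth in level and still exceeded 91.8% of the 11570 genes. HK1, at 5.55 ± 0.739 FPKM, exceeded 27.9% of them and was the only member below the median gene. Together the 10 genes held 0.706%, 0.619% and 0.550% of the summed FPKM of pools 1, 2 and 3. GAPDH and LDHA alone made up 34.1% ± 0.854 and 20.5% ± 3.89 of the members' sum.

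**Figure D1:**
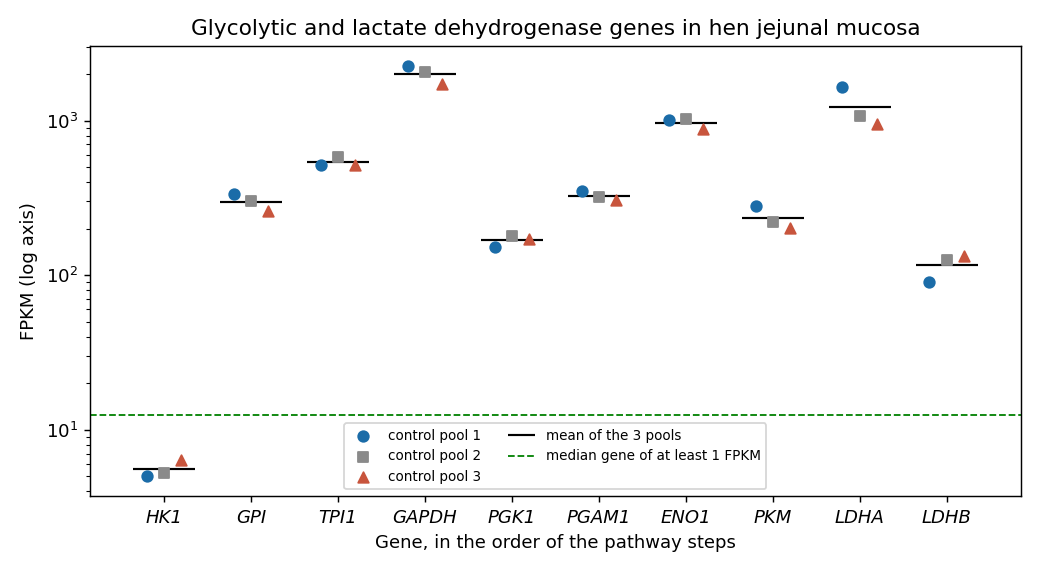
FPKM of each gene (vertical log axis) in control pools 1 (circles), 2 (squares) and 3 (triangles), with genes in the order of the pathway, black bars for the mean of the 3 pools and a dashed line at the median gene of at least 1 FPKM (12.5 FPKM). GAPDH, LDHA and ENO1 stand highest and HK1 is the only gene under the line.

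The order of the 10 levels was the same in all 3 pools. From high to low it ran GAPDH, LDHA, ENO1, TPI1, PGAM1, GPI, PKM, PGK1, LDHB and HK1. Differences between neighbours in this order are given on the log2(FPKM + 1) scale, where 1 is a doubling of FPKM + 1. For a low gene such as HK1 they are smaller than the log2 differences of FPKM itself. The closest neighbours were PGAM1 over GPI, by 0.13 ± 0.09, and LDHA over ENO1, by 0.30 ± 0.37. The latter difference was smaller than its SD, and it was 0.72 in pool 1 against 0.06 and 0.10 in pools 2 and 3. LDHA and ENO1 were thus near equal in pools 2 and 3 and apart in pool 1. The values of GPI and PKM over the pools also overlapped, although GPI was higher by 0.36 ± 0.09 within pools. The widest gap was LDHB over HK1, at 4.15 ± 0.21, and 8 of the 9 neighbour differences were larger than their SD.

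Among the enzymes that start the pathway, HKDC1 and HK2 transcripts both exceeded those of HK1. HK1, the hexokinase of most tissues, had 5.04, 5.22 and 6.40 FPKM in pools 1, 2 and 3. Pools 1 and 2 were close to each other and pool 3 was highest, a 1.27-fold span. HK2, a hexokinase of muscle and growing cells, was at 9.56, 9.82 and 14.55 FPKM, higher than HK1 in every pool. HKDC1, a hexokinase relative described in mammals as expressed in epithelia, was at 81.29, 51.72 and 48.03 FPKM, with pool 1 apart from the others. Of the FPKM summed over HKDC1, HK1, HK2 and HK3, HKDC1 took 74.3% ± 8.02, HK2 14.6% ± 5.22 and HK1 7.15% ± 1.89. HK3, a hexokinase of blood cells, was at 3.06 ± 0.347 FPKM. ADPGK, which uses ADP in place of ATP, was at 6.40 ± 1.62 FPKM. The share of HKDC1 was 82.3% in pool 1 and 66.3% in pool 3, while the shares of HK1 and HK2 were both lowest in pool 1 and highest in pool 3.

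GPI, which interconverts glucose and fructose phosphates, had 334.88, 301.08 and 259.45 FPKM. Pool 1 was highest and pool 3 lowest, a 1.29-fold span. GPI exceeded HK1 by 5.51 ± 0.34 on the log2(FPKM + 1) scale. The phosphofructokinase genes, which act after GPI, differed in abundance. The platelet-type subunit PFKP was at 70.4 ± 7.92 FPKM, the liver-type PFKL at 21.7 ± 4.01 and the muscle-type PFKM at 0.477 ± 0.0473. PFKP made up 75.9% ± 5.51 of the 3. ALDOC, an aldolase, was at 214 ± 23.8 FPKM and highest in pool 3.

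**Figure D2:**
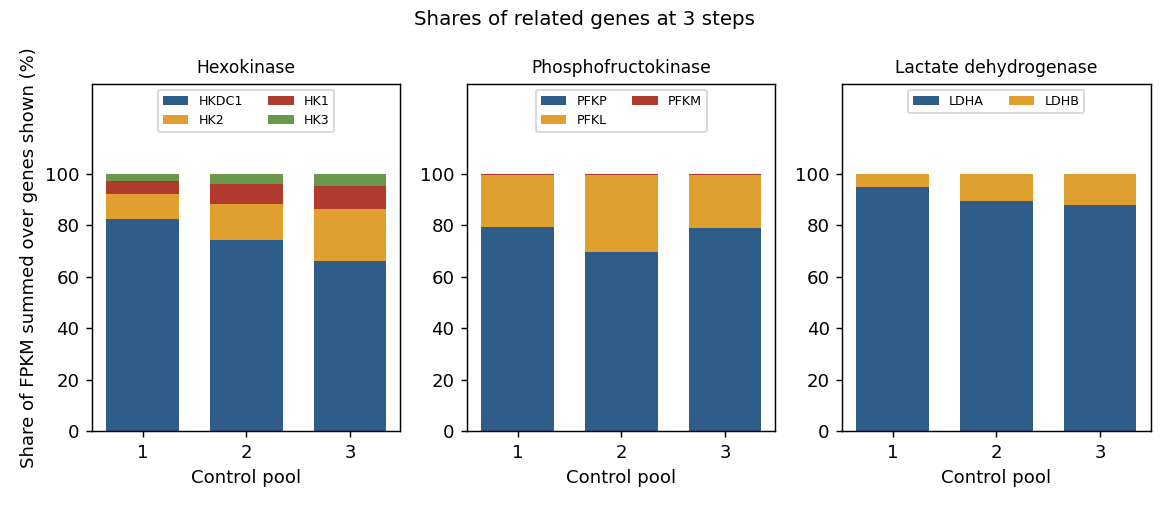
Share of the FPKM summed over the genes shown for a step (vertical axis, percent) that each took in control pools 1, 2 and 3, for hexokinase, phosphofructokinase and lactate dehydrogenase. HKDC1, PFKP and LDHA hold most of the FPKM shown, and the LDHB share goes from 5.19% in pool 1 to 12.3% in pool 3.

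The middle of the pathway was led by GAPDH. TPI1, which interconverts the triose phosphates, had levels of 518.84, 578.13 and 514.57 FPKM. Pool 2 was highest, the others nearly equal, and the CV of 6.61% was the smallest of the 10. GAPDH, which oxidises glyceraldehyde phosphate and makes NADH, was at 2238.93, 2059.88 and 1723.08 FPKM. It was highest in pool 1 and lowest in pool 3, 1.30-fold apart. PGK1, the kinase that makes the first ATP of the pathway, was at 152.28, 179.40 and 171.71 FPKM, lowest in pool 1. PGK1 was the lowest enzyme after the triose steps other than LDHB, and GAPDH exceeded it by 3.57 ± 0.28 on the log2(FPKM + 1) scale.

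At the lower end, enolase was the most abundant step before lactate dehydrogenase. PGAM1, the phosphoglycerate mutase, was at 349.96, 320.56 and 305.15 FPKM in pools 1, 2 and 3. ENO1, the enolase of most tissues, was at 1006.57, 1019.49 and 885.53 FPKM. Pool 3 was lowest for both, and the pools lay within 1.15-fold of each other for each gene. ENO2, the enolase of neurons, was at 0.630 ± 0.425 FPKM, so ENO1 held 99.9% ± 0.0497 of the summed FPKM of the 3 measured enolase genes. PKM, pyruvate kinase, was at 278.33, 221.44 and 201.66 FPKM, with pool 1 apart and highest. PKM was below ENO1, with a difference of -2.06 ± 0.18 on the log2(FPKM + 1) scale. The RefSeq gene table of assembly GRCg7b lists the names PKM and PGK1 as synonyms of genes it calls PKLR and PGK2, and the other 8 members under their own symbols. Thus the PKM and PGK1 values are those of the symbols in the deposited table, and no muscle or liver type of pyruvate kinase is read from them. BPGM, a mutase that makes bisphosphoglycerate, was at 4.48 ± 0.880 FPKM. PGAM5, a mitochondrial phosphatase that shares the mutase name, was at 43.7 ± 3.20 FPKM.

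The 2 lactate dehydrogenase subunits had opposite orders across the pools. LDHA, the subunit that predominates in muscle, was at 1659.58, 1065.39 and 949.88 FPKM in pools 1, 2 and 3. LDHB, the subunit that predominates in heart, was at 90.84, 125.50 and 133.44 FPKM. Pool 1 stood apart for both genes, highest for LDHA and lowest for LDHB, while pools 2 and 3 were close. LDHA spanned 1.75-fold and LDHB 1.47-fold between pools, the widest spans of the 10 genes, with CVs of 31.1% and 19.4%. LDHA exceeded LDHB in every pool, at an FPKM ratio of 18.3 in pool 1, 8.49 in pool 2 and 7.12 in pool 3. The LDHB share of the summed lactate dehydrogenase FPKM was accordingly 5.19%, 10.5% and 12.3%, or 9.35% ± 3.71. It was 11.4% ± 1.26 without pool 1. LDHD, a mitochondrial enzyme for D-lactate, was at 13.1 ± 0.844 FPKM.

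The members differed between pools about as much as other genes did. The shift of a gene in a pool is its log2(FPKM + 1) there less the average of the remaining pools. No member had a range over 1 between its highest and lowest pool, where 7.06% of the 11570 genes did, and 5.41% of the abundant genes averaging 100 FPKM or more. A share of that size is less than 1 gene in 10, so the count does not set the members apart. The median range of the members was 0.33, the same as that of all genes to 2 decimals, and above the 0.28 of the abundant genes. The median member shift was 0.12, 0.05 and -0.16 in pools 1, 2 and 3, against -0.10, 0.01 and 0.10 for the median gene. The median of the abundant genes, the class of 9 of the 10 members, was 0.03, 0.04 and -0.06, lower in pool 3 as the members were. With median ratio scaling, which by design evens out the median gene, the pool 3 shift was -0.26 for the median member and 0.01 for the median gene.

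Of the 10 members, 7 were lowest in pool 3, as were 27.6% of the 11570 genes and 49.3% of the abundant ones. These were GAPDH, LDHA, ENO1, TPI1, PGAM1, GPI and PKM. PGK1, LDHB and HK1 were lowest in pool 1, as were 51.3% of genes and 35.4% of the abundant ones. Highest in pool 1 were 5 members, against 24.7% of genes, or 39.6% of the abundant ones. The same 5, GAPDH, GPI, LDHA, PGAM1 and PKM, had the order pool 1 over 2 over 3, against 16.8% of genes, or 31.7% of the abundant ones. HK1 and LDHB had the reverse order, pool 3 over 2 over 1, against 39.0% of genes and 24.3% of the abundant ones. With pools rescaled by median ratios, PGK1 was lower in pool 3 than in the others on average, at -0.04 in place of 0.05, and TPI1 higher in pool 1, at 0.03 in place of -0.07. The other 8 members had the same direction in pools 1 and 3 under that scaling.

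**Figure D3:**
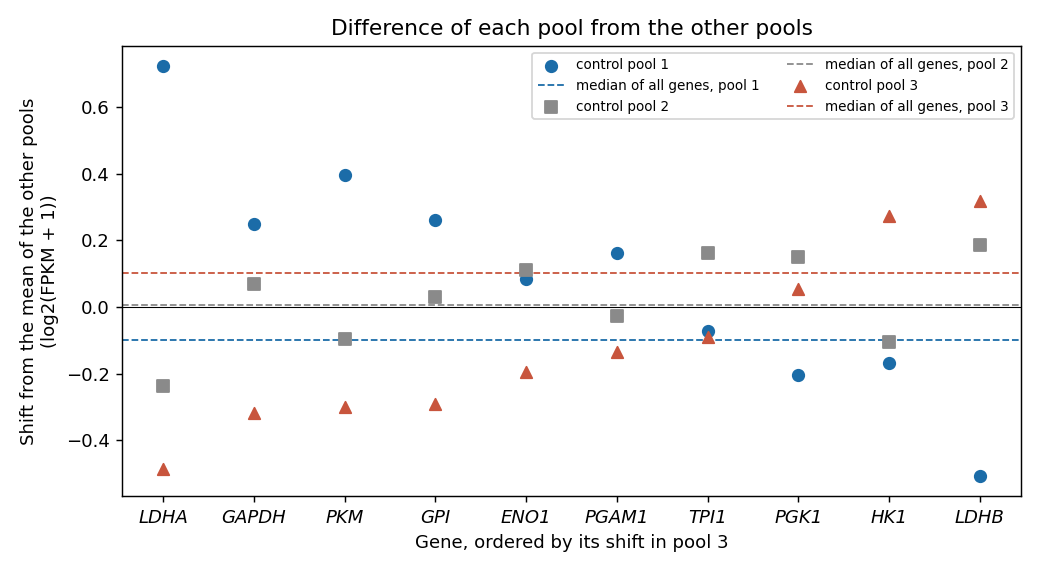
Shift of each gene in control pools 1, 2 and 3 (vertical axis, log2(FPKM + 1) less the average of the remaining pools), ordered by the shift in pool 3, with dashed lines at the median shift of all genes in each pool. LDHA, GAPDH, PKM and GPI are high in pool 1 and low in pool 3, while HK1 and LDHB show the opposite.

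Several cell type marker lists differed between pools by more than the median member. The median enterocyte marker shifted by 0.54, 0.19 and -0.90 in the 3 pools, and pool 3 was lowest for all 14. For smooth muscle the medians were -1.39, 0.15 and 1.27, and for fibroblasts -1.13, 0.09 and 1.03. Each of the 12 muscle and 10 fibroblast markers was lowest in pool 1 and highest in pool 3. Crypt and cycling markers were at -0.66, 0.27 and 0.50, T and NK markers at -0.36, -0.01 and 0.37, and macrophage markers at -0.36, 0.07 and 0.34. The 7 endothelial markers averaging 1 FPKM or more were at -1.01, 0.03 and 0.95. Goblet markers and B and plasma cell markers differed no more than the median member in pool 1, but more in pool 3. Enteroendocrine markers differed no more than the median member in pool 3, but more in pool 1. In pool 2 the goblet, T and NK, and endothelial markers differed no more than the median member. Goblet markers were at 0.09, 0.03 and -0.34, enteroendocrine markers at -0.24, 0.31 and -0.16, and B and plasma cell markers at -0.02, -0.22 and 0.42. The haemoglobins HBA1 and HBBA, the 2 measured red cell markers, summed to 52.5, 140.3 and 149.5 FPKM. No list held a marker at 0 in all pools, but neither did any of the 15675 rows, so this does not set the markers apart. GPI, GAPDH, PKM, PGAM1, ENO1 and LDHA had the direction of the enterocyte list in pools 1 and 3. The goblet list and the median abundant gene had that direction too. HK1, LDHB and PGK1 had the direction of the muscle and stromal lists. For PGK1, however, the pool 3 shift was -0.04 under median ratio scaling and -0.06 without pool 1. The endothelial, crypt and cycling, T and NK, macrophage, and B and plasma cell lists and the median gene shared the muscle and stromal direction. Neither direction is thus particular to a cell type. TPI1 had neither direction, but that of the enterocyte list under median ratio scaling, at 0.03 and -0.19, and without pool 2, at 0.012 and -0.012. ENO1 in pool 1 was at -0.018 without pool 3. The part of these cell types in the members' differences was not tested.

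**Figure D4:**
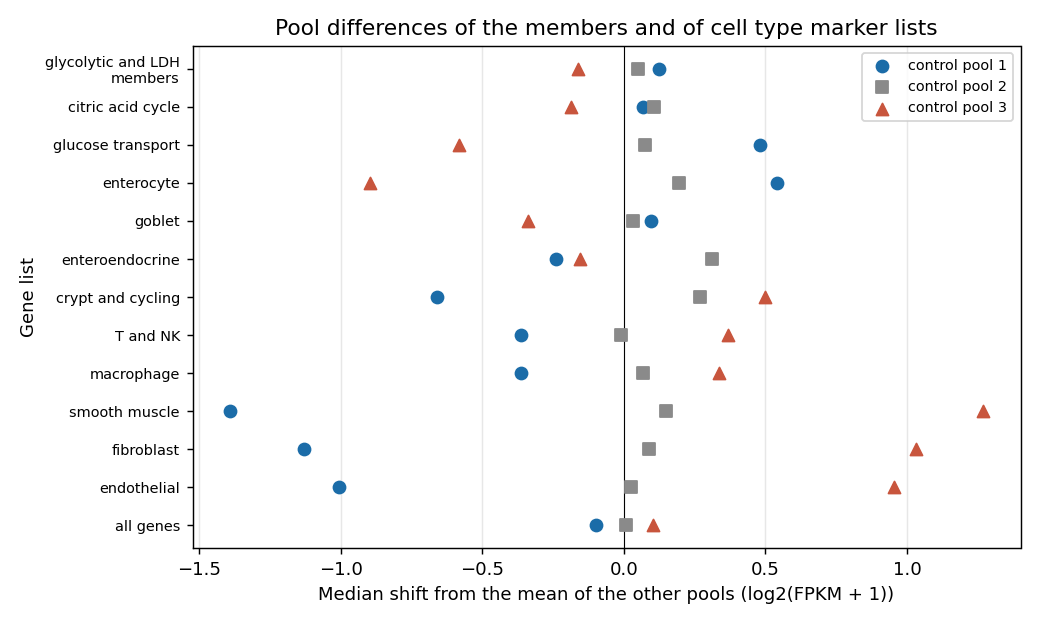
Median shift (horizontal axis, log2(FPKM + 1) in a pool less the average of the remaining pools) of the 10 members, of related pathway lists, of cell type marker lists and of all genes, in control pools 1, 2 and 3. The members lie between -0.16 and 0.12, the enterocyte list between -0.90 and 0.54, and smooth muscle between -1.39 and 1.27.

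Some members kept near constant proportions to each other, while LDHA and LDHB did not. The SD over pools of the log2(FPKM + 1) difference was computed for all 45 pairs of members, and was 0.25 for the median pair. GPI and GAPDH formed the most constant pair, with an SD of 0.02. GPI stood at 15.0%, 14.6% and 15.1% of the GAPDH level in pools 1, 2 and 3, although both genes differed 1.3-fold between pools. PGAM1 and ENO1 had an SD of 0.08, GPI and PKM 0.09, and 7 pairs were under 0.1. LDHA stood at 74.1%, 51.7% and 55.1% of GAPDH. LDHA and LDHB formed the least constant pair, with an SD of 0.72. The median SD of pairs with LDHB was 0.39, with LDHA 0.37 and with HK1 0.27, against 0.14 for pairs with PGAM1. LDHA with PKM and LDHB with PGK1 were nevertheless below the median pair, each at an SD of 0.19. With 3 pools these SDs are imprecise, and they were computed for no other genes, so nothing particular to glycolysis is read from them.

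**Figure D5:**
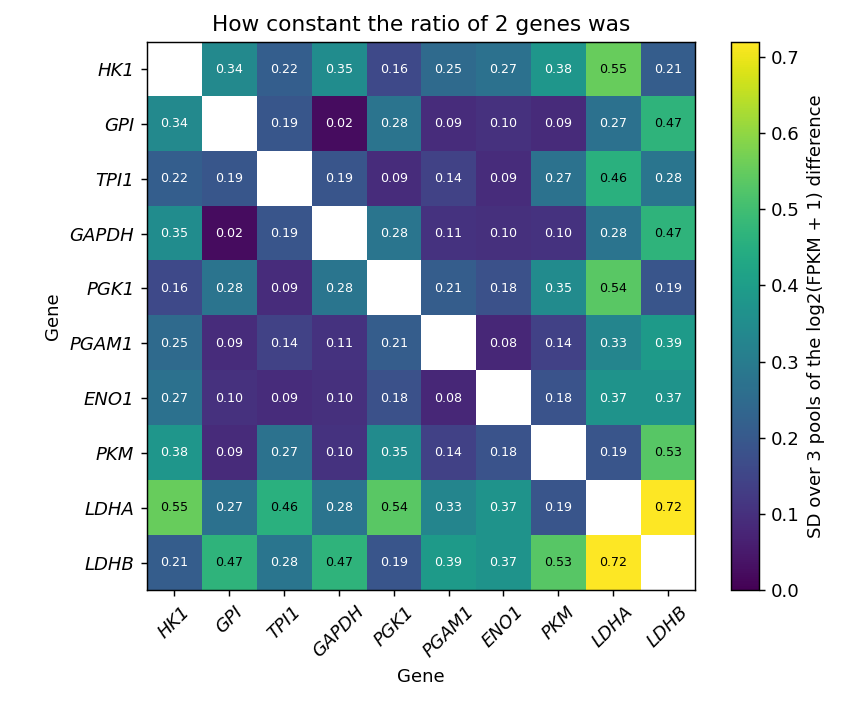
SD over the 3 control pools of the log2(FPKM + 1) difference between each pair of genes (colour and number in each cell; both axes list the genes in pathway order). The GPI and GAPDH cell is the lowest at 0.02, and the LDHA and LDHB cell the highest at 0.72.

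Within pools, 14 pairs of neighbouring steps or related genes were compared. All 14 had the same direction in every pool and a mean difference larger than its SD. LDHB minus LDHA was -3.36 ± 0.72 on the log2(FPKM + 1) scale, HK1 minus HK2 was -0.89 ± 0.16, TPI1 minus GAPDH was -1.89 ± 0.19, and PGAM1 minus PGK1 was 0.95 ± 0.21. ENO1 minus PGAM1 was 1.57 ± 0.08 and PFKP minus PFKL was 1.66 ± 0.41. LDHB minus PKM, at -1.004 ± 0.53, was the difference closest to its SD. The exact two-sided sign-flip permutation test gave p = 0.25 for each pair, the smallest value 3 pools allow, and 0.25 after Benjamini-Hochberg adjustment, so no pair could pass a threshold. Related genes can share reads, and the differences among hexokinases, phosphofructokinases and lactate dehydrogenases carry that uncertainty.

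Carriers that feed the pathway and remove its products were measured in the same pools. The sodium-coupled glucose carrier of the brush border, SLC5A1, had 892.31, 707.38 and 529.81 FPKM, and the basolateral carrier SLC2A2 at 41.88, 22.04 and 13.49. SLC2A1, the glucose carrier of most other cells, had the reverse order, at 6.78, 10.22 and 17.26 FPKM. Thus SLC2A2 and SLC2A1 had opposite orders across pools, as LDHA and LDHB did. The glucose transport list held 7 measured SLC2A and SLC5A genes, not all of them mainly glucose carriers. Of these 7, 6 were lowest in pool 3, against 27.6% of the 11570 genes and 49.3% of the abundant ones. A range over 1 was seen for 3 of the 7, among them SLC2A5, against 7.06% of the 11570 genes. SLC16A1, which carries lactate and pyruvate across membranes, was at 23.73, 24.10 and 24.22 FPKM and hardly differed between pools. Its relative SLC16A3 was at 0.467 ± 0.312 FPKM, and BSG, the chaperone of these carriers, at 96.8 ± 7.14. MPC1 and MPC2, the mitochondrial pyruvate carrier, were at 186 ± 17.3 and 269 ± 25.3 FPKM. PDHA1 and PDHB of pyruvate dehydrogenase were at 99.2 ± 3.94 and 47.9 ± 1.66, and LDHB exceeded PDHB by 1.25 ± 0.25 on the log2(FPKM + 1) scale. Of the 14 measured genes of pyruvate entry, 1 had a range over 1, near the 7.06% of all genes. It was the dehydrogenase kinase PDK4, at 1.68, 3.96 and 1.12 FPKM.

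The genes whose pool pattern was most like the median member were sought among the 1100 other abundant genes. Likeness was the largest absolute difference in deviation from a gene's own mean of log2(FPKM + 1) over the 3 pools. NUS1, ATP5G2, PARK7, UQCRH and GPA33 were the closest, with differences of 0.005 to 0.013. UQCRH, for example, was at 1438.66, 1378.66 and 1261.61 FPKM in pools 1, 2 and 3. As 78 genes lay within 0.05 over only 3 pools, this closeness is common.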

How the data were processed

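Per the labels' protocols, jejunal mucosa RNA of 4 hens was combined per pool, and random-primed libraries were made after poly(A) selection or ribosomal RNA removal. Listed in the submitters' processing notes are build GRCg6a, HISAT2 2.0.1, HTSeq 0.6.1, cutadapt 1.9.1 and DESeq2. The step each served, the annotation and the strand setting were not given in the sources used here. The values are FPKM per the file headers, used as deposited, so very abundant genes lower the others. The FPKM sums were 939772, 948742 and 936084 in pools 1, 2 and 3. The authors also deposited estimated counts, summing to 10380625, 11558454 and 11660879, with 86.8% to 86.9% of values whole within 1e-06. They did not follow the FPKM of their rows: across 15675 genes, which are not replicates, Pearson's r of the log2 values was 0.009, 0.006 and 0.005. In pool 1 GAPDH had 2238.93 FPKM and a count of 265. Counts were therefore used for no result, and the depth behind each FPKM is unknown, so no counting interval is given. A further 6 value columns match no labelled sample and were not used. In 19 rows the symbol had become a date.

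All libraries form 1 group, so no count model was fitted and no groups were compared. Values were transformed as log2(FPKM + 1), and genes averaging 1 FPKM or more form the background. The 16 pairs (14 measured), 12 pathway and 13 marker lists, and the members, were chosen with earlier results of these data known. Of 272 listed symbols 238 matched, by symbol only. Named genes were the members, the measured genes of other glycolytic steps averaging 1 FPKM or more, up to 4 leading genes of each other pathway list and 3 of each marker list, both genes of each pair, and the 5 most similar genes. PFKM, SLC2A1, PDK4, EGLN3, HIF1A and PFKFB3 fall outside this rule and were named after their values were seen. A few others it covers are not reported here. RefSeq GRCg7b gave names only. The steps were tested on simulated data. Alternatives were other scalings, a pseudocount of 0.1, other minimum values and each pool left out. The software was matplotlib 3.10.9, pandas 2.3.3, numpy 2.4.6 and Python 3.11.15.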

Additional observations from a re-analysis of the deposited data

How the results depend on the processing

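No paired comparison between groups was possible because all pools belong to 1 group. The precision of each level is limited by 3 pools and by the unknown depth behind each FPKM. The median member shift in pool 1 was 0.22 with median ratio scaling, which brought the median gene there from -0.10 to -0.01. In pool 3 that scaling took the median member shift from -0.16 to -0.26. Without a pool, the median member shift ranged from 0.051 to 0.19 in pool 1, from -0.051 to 0.15 in pool 2 and from -0.19 to -0.15 in pool 3. Its direction in pool 2 thus rests on which pool it is set against, at -0.051 without pool 3 and 0.15 without pool 1. The number of genes with a range over 1 was 817, and it became 1374 when 0.1 was the pseudocount and 464 when genes had to average 5 FPKM. Leaving out 1 pool gave 185 to 684, with 206 without pool 1 and 185 without pool 3. The mean share of summed FPKM held by the members went from 0.625% to 0.707% without the 10 most abundant genes in the sum. That rise follows from the smaller sum. The direction of the changes in the number of genes with a range over 1 also follows from the settings. A smaller pseudocount can only widen a range, a higher minimum keeps fewer genes, and leaving out a pool cannot widen a range. Why the remaining values changed was not tested. No member had a range over 1 under any of these settings, although leaving out a pool cannot widen a range. The 14 pairs kept their direction with median ratio scaling, with a pseudocount of 0.1 and without each pool. None of these settings could have reversed a pair, so this is no test of the directions. The same gene of a pair was higher in each pool, and scaling or a pseudocount treats both genes of a pool alike. Without pools 1, 2 and 3 in turn, the LDHB share was 11.4%, 8.75% and 7.86%.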

Other observations

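Genes of the branches from glycolysis differed in which pool was lowest. In the pentose phosphate, gluconeogenesis and fructose entry lists, pool 3 was lowest for most genes. In the pentose phosphate pathway, which makes NADPH and ribose, the non-oxidative enzymes TALDO1 and TKT were at 215.59, 251.69 and 276.53 FPKM and at 151.40, 187.54 and 210.89 FPKM in pools 1, 2 and 3, the order of HK1 and LDHB. RPE and RPIA, which interconvert pentose phosphates, did not have that order. They were at 115.65, 111.49 and 105.48 FPKM and at 116.81, 102.45 and 111.65 FPKM. Of 9 measured pentose phosphate genes, 5 were lowest in pool 3, against 27.6% of the 11570 genes and 49.3% of the abundant ones. FBP1, the fructose bisphosphatase of gluconeogenesis, was at 323.15, 393.25 and 223.75 FPKM, and PCK1, which makes phosphoenolpyruvate, at 13.25, 18.51 and 4.35. Both were lowest in pool 3, as were 4 of the 5 gluconeogenic genes averaging 1 FPKM or more. The shares were 27.6% of the 11570 genes and 49.3% of the abundant ones. KHK and TKFC, enzymes of fructose entry into glycolysis, were at 282.06, 241.59 and 149.79 FPKM and at 165.26, 225.81 and 116.39 FPKM. Malate dehydrogenases, which help return NADH electrons to mitochondria, were abundant, with MDH2 at 1393 ± 198 and MDH1 at 341 ± 19.9 FPKM. Of 17 measured citric acid cycle genes, 11 were lowest in pool 3, against 27.6% of the 11570 genes and 49.3% of the abundant ones. The cycle genes had a median level of 111.0 FPKM and a median shift of -0.19 in pool 3.

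Among 24 measured regulators, the glucose-responsive factor MLXIPL was at 103.84, 73.96 and 52.33 FPKM in pools 1, 2 and 3, and its target TXNIP at 157.63, 143.20 and 144.79. EGLN3, a prolyl hydroxylase that marks hypoxia-inducible factors for degradation, was at 37.59, 27.92 and 17.42 FPKM. It was the only one of 22 regulators averaging 1 FPKM or more to have a range over 1. Of the 11570 genes 7.06% had such a range, so this count does not set the regulators apart. HIF1A was at 10.93, 11.15 and 15.63 FPKM. PFKFB3, which makes an activator of phosphofructokinase, was at 24.7 ± 4.32 FPKM.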
